A study of Mus musculus with 10 samples.

Results

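The major urinary protein family was represented on the array by 9 probes for 6 Mup genes, of 45281 probes and 19057 named genes in all. The members were all probes whose gene symbol in the platform annotation begins with Mup followed by a number. They comprised 3 probes for Mup2, 2 for Mup5 and 1 each for Mup3, Mup6, Mup20 and Mup21. No probe listed several Mup genes. RefSeq (assembly GRCm38.p6) lists 22 Mup genes on chromosome 4, and the rest of them had no probe named for them. The sequences of the probes were not used here, and near-identical Mup transcripts can share a probe. Each value below is therefore the signal of a probe named for a gene, which may include RNA of its close copies.

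Liver RNA of 10 mice of the inbred strain FVB was read on Illumina bead arrays, a separate array for each animal. The LKB1 group comprised 6 mice that received a plasmid for wild-type LKB1 by tail vein, 1 dose weekly for 8 weeks, to overexpress it. The other group comprised 4 untreated mice. The untreated mice are not said to have been injected, so effects of injection, of plasmid DNA and of LKB1 itself cannot be told apart. LKB1, encoded by Stk11, is a kinase that activates AMPK and its relatives, and the comparison asks which liver transcripts differ when LKB1 is added. The labels give neither the sex nor the age of the mice, and they call the material hepatocytes in one place and liver in another.

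Major urinary proteins are small secreted carriers of the lipocalin fold. Hepatocytes of adult male mice make them in large amounts, and they pass through the blood and the kidney into urine, where they bind volatile pheromones and release them slowly. Their genes are clustered near-copies of each other, and liver transcription of many of them depends on pulses of growth hormone acting through STAT5, with further control by androgen, thyroid hormone and glucocorticoid.

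The stretches before the listed starts of measured genes are shown because they make the likeness of the members visible. The RefSeq promoter table (build GRCm38.p6) held 4 of the 6 measured genes. Each line gives the 120 bases before the start in that table, on the gene's strand. The letters TATATAA, the core of a TATA box, are in capitals. The RefSeq gene span of Mup2 runs from 60135913 to 60139977, so its stretch lies inside that span.
Mup2, chr4:60139857-60139976, minus strand: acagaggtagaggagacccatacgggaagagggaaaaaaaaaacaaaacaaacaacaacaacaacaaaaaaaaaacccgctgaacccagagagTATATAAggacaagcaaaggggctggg
Mup3, chr4:62087318-62087437, minus strand: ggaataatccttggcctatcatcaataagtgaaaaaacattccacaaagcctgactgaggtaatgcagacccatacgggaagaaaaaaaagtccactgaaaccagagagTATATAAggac
Mup6, chr4:60003361-60003480, plus strand: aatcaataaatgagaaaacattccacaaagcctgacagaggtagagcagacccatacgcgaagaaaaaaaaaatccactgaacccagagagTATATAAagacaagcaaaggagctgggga
Mup21, chr4:62150842-62150961, minus strand: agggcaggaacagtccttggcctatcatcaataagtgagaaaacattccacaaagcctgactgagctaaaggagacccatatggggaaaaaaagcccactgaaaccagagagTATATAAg

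Over the aligned bases of the 250 positions before the starts in the promoter table, pairs of these 4 genes were 85.8% to 93.4% identical. Mup2 and Mup6 formed one of the closest pairs (199 of 213 aligned bases), and Mup3 and Mup21 the other (228 of 244 aligned bases). The motif TATATAA was searched on both strands in windows of 300 bases, from 250 before to 50 after the start in the promoter table. It was present in 13 of the 14 Mup genes of the table and in 3.24% of all promoter windows. The letters TTCNNNGAA, the core that STAT5 binds, were in 0 of the 14 Mup windows and in 8.30% of all windows, which says only that these letters are not in these windows, so no overlap with TATATAA arose there.

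All 9 Mup probes were detected on all 10 arrays and passed the filter on dim probes, which asked for detection (p under 0.05) on 4 or more arrays and kept 16803 probes. Values are log2 intensities after background correction and quantile normalization, a step that gives every array the same distribution of values. All 6 hepatocyte markers (Alb, Ttr, Apoa1, Serpina1a, Tat and Hnf4a) were kept. Tat was near background, with means of 4.99 in LKB1 and 5.18 in untreated livers. The probe for Alb had means of 8.47 and 8.43, with SDs of 0.61 and 0.68. Stk11 itself differed by 0.06 ± 0.08 (SE) on the log2 scale between LKB1 and untreated livers (limma adjusted p = 0.930), and whether its probe can bind RNA from the plasmid was not tested. The arrays were cut into 2 sets by clustering of the 24495 probes detected on no array, so the number of sets was imposed. Set A held LKB1 1, 2 and 4 and untreated 1 and 2. Set B held LKB1 5, 6 and 7 and untreated 3 and 4. On these probes the mean Spearman correlation between arrays was 0.522 within sets and 0.482 between sets. No label or header says what the sets reflect.

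The Mup probes did not separate livers with added LKB1 from untreated livers. None of the 9 passed an adjusted p of 0.05 (limma, 0 of 9), where the share of all kept probes called was 0%. None had an unadjusted p under 0.05, where 6.66% of all kept probes did, and the smallest unadjusted p in the family was 0.395. In LKB1 livers 5 probes were higher and 4 lower, where 49% of all kept probes were higher and 51% lower, and the median log2 fold change of the 9 probes was 0.004, beside -0.003 over all kept probes. The groups overlapped at all 9 probes. Over all kept probes the groups did not overlap at 1.37%. If the material was whole liver, a change in the share of hepatocytes and a change in Mup RNA per hepatocyte cannot be told apart.

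Mup2 is one of the abundant urinary proteins made by hepatocytes, and its 3 probes did not all have the same pattern over mice. ILMN_3065459 and ILMN_3143404 were both lowest in LKB1 replicate 7 and next lowest in LKB1 replicate 6, where ILMN_2730208 was above its mean. The probe ILMN_2730208 ranged from 14.61 over a median of 15.08 to 15.30 in LKB1 livers, against 14.85, 14.74, 14.96 and 15.30 in untreated livers. The groups spanned nearly the same range, with the highest value shared by LKB1 replicate 5 and untreated replicate 4. The probe had rank 2 on both arrays, so quantile normalization gave them the same value. Their deposited intensities were 40495 and 40620. The fold change for this probe was 1.04, with a 95% confidence interval from 0.836 to 1.29 (limma adjusted p = 0.964).

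The Mup2 probe ILMN_3065459 ranged from 14.51 over a median of 14.75 to 14.85 in LKB1 livers, against 14.79, 14.75, 14.75 and 14.81 in untreated livers. The untreated mice lay close together, and 2 LKB1 mice lay above and 2 below all of them, so that the SD was 0.13 in LKB1 livers (n = 6) and 0.03 in untreated livers (n = 4). The fold change was 0.958, with an interval from 0.844 to 1.09 (limma adjusted p = 0.927).

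The third Mup2 probe, ILMN_3143404, had the lowest fold change of the family. It ranged from 11.88 over a median of 12.45 to 12.80 in LKB1 livers, against 12.58, 12.43, 12.34 and 12.86 in untreated livers. LKB1 replicates 6 and 7 stood low, at 12.09 and 11.88, and replicate 1 at 12.28 was also below all untreated mice, while LKB1 replicates 2, 4 and 5 lay within the untreated range. The fold change was 0.896, with an interval from 0.685 to 1.17 (limma adjusted p = 0.910).

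Mup6, the gene whose promoter was closest to that of Mup2, had mean log2 values of 13.64 ± 0.26 (SD, n = 6) in LKB1 livers and 13.64 ± 0.21 (SD, n = 4) in untreated livers. Its values ran from 13.23 over a median of 13.77 to 13.87 in LKB1 livers, against 13.91, 13.62, 13.40 and 13.62 in untreated livers. LKB1 replicates 6 and 7 were again the lowest treated mice, and the other 4 lay between 13.77 and 13.87. The fold change was 1.003, with an interval from 0.811 to 1.24 (limma adjusted p = 0.998).

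Mup20 encodes darcin, the male pheromone protein that attracts female mice. Its probe ranged from 12.69 over a median of 13.02 to 13.32 in LKB1 livers, against 12.99, 12.83, 13.16 and 13.51 in untreated livers. LKB1 replicate 1 was the lowest and untreated replicate 4 the highest of all mice, and the other 5 LKB1 mice fell inside the untreated range. The fold change was 0.931, with an interval from 0.751 to 1.15 (limma adjusted p = 0.930).

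Mup3 and Mup21, whose promoters were among the closest pairs above, had narrow spreads over mice, as had Mup2 probe ILMN_3065459. The Mup3 probe ranged from 14.58 over a median of 14.67 to 14.84 in LKB1 livers, against 14.72, 14.66, 14.44 and 14.65 in untreated livers. Untreated replicate 3 was the low mouse, and 1 LKB1 mouse lay above all untreated mice. The fold change of Mup3 was 1.04, with an interval from 0.916 to 1.18 (limma adjusted p = 0.939).

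The Mup21 probe ranged from 14.96 over a median of 14.99 to 15.15 in LKB1 livers, against 14.94, 14.96, 15.01 and 15.04 in untreated livers. All 10 mice lay within 0.21 log2 units, and LKB1 replicates 2 and 4 lay above every untreated mouse. The fold change of Mup21 was 1.02, with an interval from 0.919 to 1.14 (limma adjusted p = 0.956). Its residual SD of 0.07 lay at percentile 1.95 of all kept probes.

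Mup5 is known chiefly from salivary and tear glands, and in liver its probes may register transcripts of its relatives, which was not tested. The probe ILMN_3158509 ranged from 10.61 over a median of 11.02 to 11.33 in LKB1 livers, against 11.16, 10.80, 11.11 and 11.35 in untreated livers. LKB1 replicates 1 and 7 lay below all untreated mice, and the other 4 within their range. The fold change was 0.923, with an interval from 0.740 to 1.15 (limma adjusted p = 0.921).

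The other Mup5 probe, ILMN_3079257, had the lowest intensity as deposited, between 192 and 376 in LKB1 livers and between 248 and 406 in untreated livers. On the log2 scale it ranged from 7.78 over a median of 8.18 to 8.71 in LKB1 livers, against 8.32, 7.99, 7.73 and 8.72 in untreated livers. It had the widest range over mice of the family, 0.997, and both its ends were untreated mice, replicate 3 at the low end and replicate 4 at the high end. The fold change was 1.02, with an interval from 0.753 to 1.38 (limma adjusted p = 0.990). Among 5 markers of glands known to express some Mup genes, Prol1, Bpifa2, Pip and Csn2 were not kept, and Amy1, a gene that liver expresses too, differed by 0.006 between the groups on the log2 scale.

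**Figure D1:**
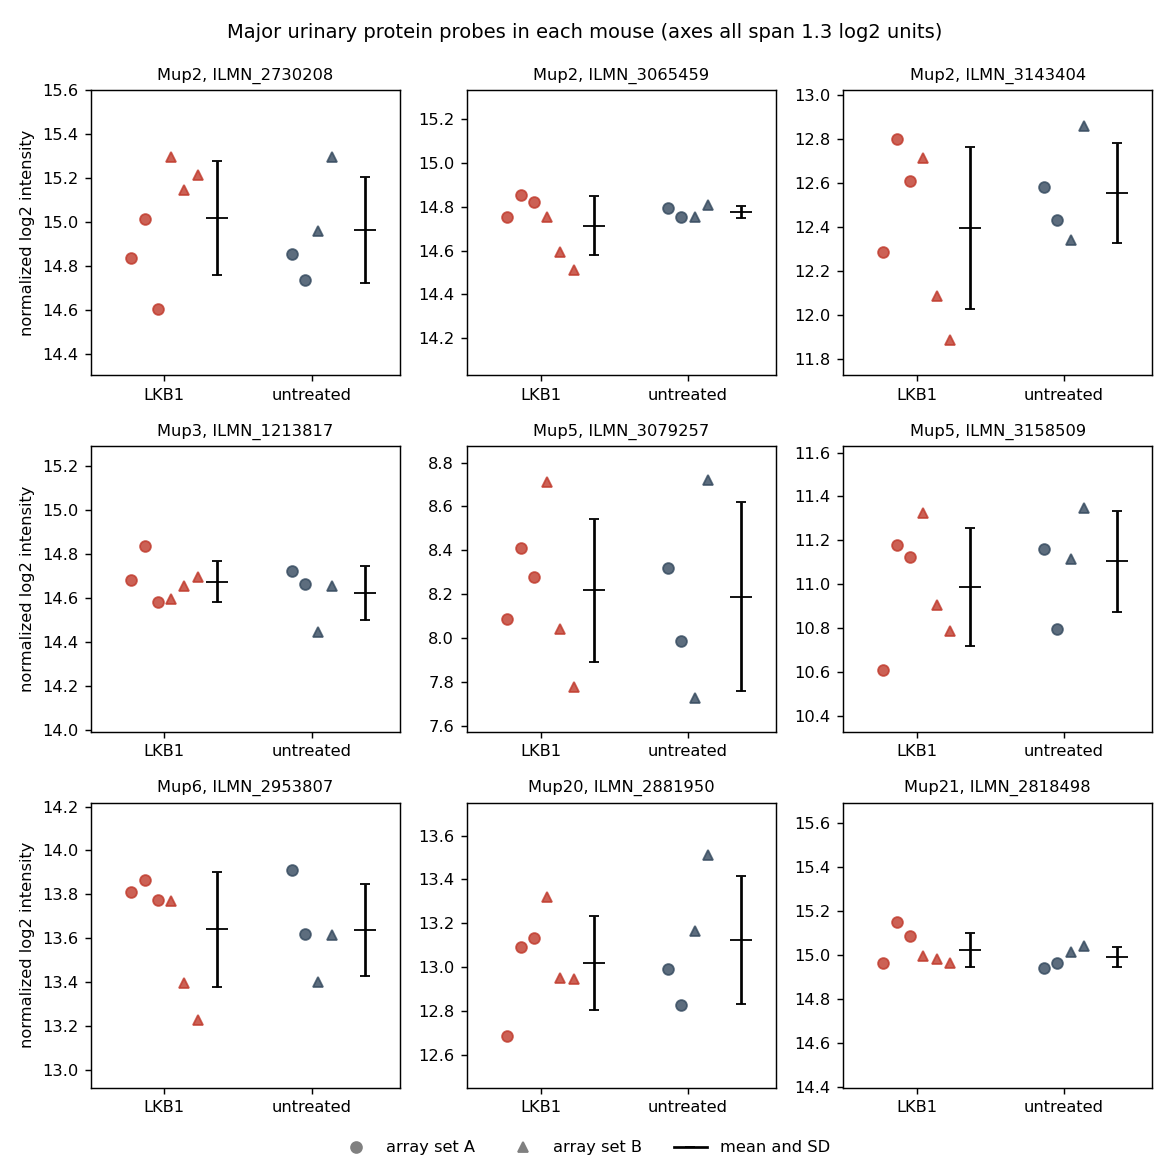
Normalized log2 intensity (vertical axes, each spanning 1.3 log2 units) of the 9 Mup probes in each mouse, for LKB1 livers (left, n = 6) and untreated livers (right, n = 4), with circles for array set A, triangles for array set B and bars for the mean and SD. At every probe the points of the groups overlap, and ILMN_2730208 stands higher on average in set B while Mup6 stands lower in it.

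The intervals limit how large a difference could have been missed under quantile normalization, and they do not cover other scalings. With cyclic loess, Mup2 probe ILMN_2730208 was at 0.30 ± 0.21 (SE) on the log2 scale. With array medians made equal it was at 0.20 ± 0.20 (SE). Across the 9 probes the lowest bound of the quantile-normalized intervals was a fold change of 0.685 (Mup2 probe ILMN_3143404). The highest bound was 1.38 (Mup5 probe ILMN_3079257). These 2 probes are not among the brightest. The probes for Mup21, Mup3 and 2 of the 3 for Mup2 were among the 50 brightest on every array, where a difference in RNA may be compressed in the signal, and the size of that effect was not tested. The highest intensity on any array lay between 38524 and 49480.

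The direction of several probes depended on the scaling, and no setting brought a Mup probe past the threshold. With array medians made equal in place of the quantile step, the fold changes on the log2 scale spread from -0.23 to 0.20, and Mup6 and Mup5 probe ILMN_3079257 changed sign. With cyclic loess they ran from -0.14 to 0.30, and with the authors' processed values from -0.16 to 0.06. On the deposited intensity without normalization all 9 probes were lower in LKB1 livers, with a median of -0.26, where the median of all kept probes was -0.20 and 87.9% of them were lower.

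**Figure D2:**
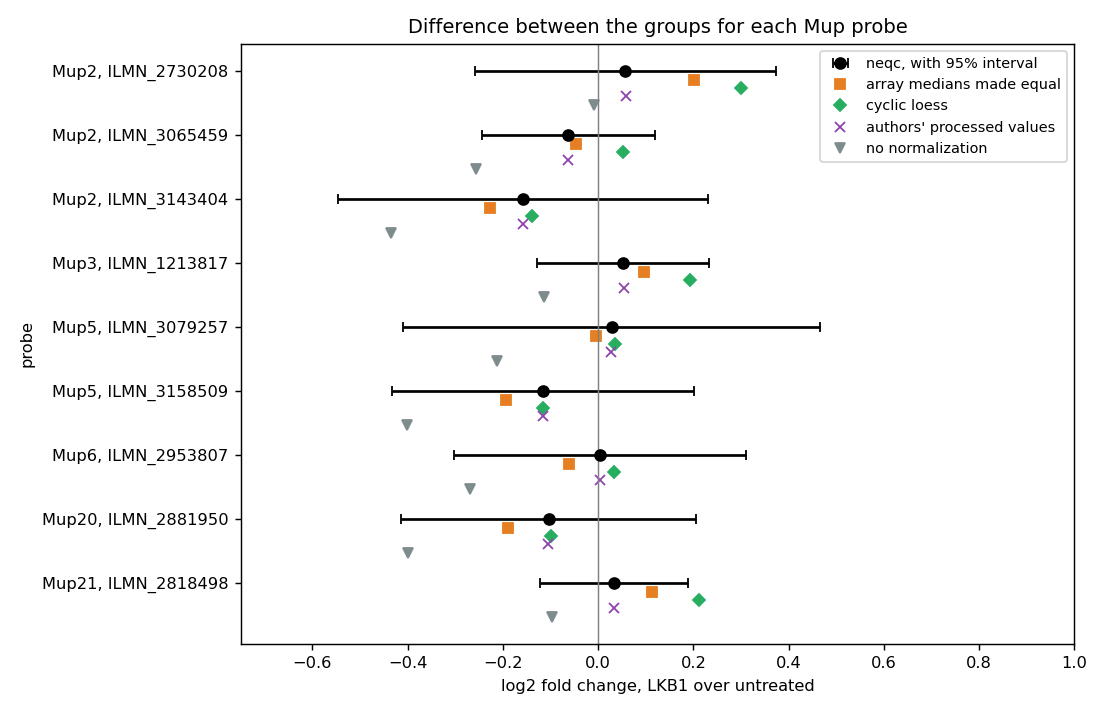
Log2 fold change of LKB1 over untreated livers (horizontal axis) for each Mup probe (vertical axis), with the black point and bar for the quantile-normalized value and its 95% confidence interval, and coloured symbols for other scalings. Every black bar spans 0, and the grey symbols, without normalization, lie to the left of 0 at all 9 probes.

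The variation of the family lay between single mice. The mean of the 9 probes, each centred on its own mean over 10 mice, was -0.01 ± 0.16 (SD, n = 6) in LKB1 livers and 0.02 ± 0.16 (SD, n = 4) in untreated livers. It ranged from -0.20 over a median of -0.05 to 0.19 in LKB1 livers, against 0.05, -0.11, -0.10 and 0.23 in untreated livers. High and low mice thus occurred in each group. Untreated replicate 4 had the highest value at 5 probes, at 1 of them tied with LKB1 replicate 5, and was above the probe mean at 8 of 9. LKB1 replicate 2 was above the mean at 9 of 9 probes, and LKB1 replicate 5 at 7 of 9. LKB1 replicates 6 and 7 and untreated replicate 2 were above it at only 2 of 9. LKB1 replicate 7 was the lowest mouse at 3 probes, with -0.57 for Mup2 probe ILMN_3143404, -0.23 for Mup2 probe ILMN_3065459 and -0.41 for Mup6.

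The probes differed in how much they varied. The residual SD within groups was 0.37 for Mup5 probe ILMN_3079257 and 0.32 for Mup2 probe ILMN_3143404, at percentiles 94.95 and 92.0 of all kept probes. For Mup20, Mup6, Mup2 probe ILMN_2730208 and Mup5 probe ILMN_3158509 it lay between 0.24 and 0.25. For Mup3 and Mup2 probe ILMN_3065459 it was 0.10 and 0.11, lower than in most kept probes.

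**Figure D3:**
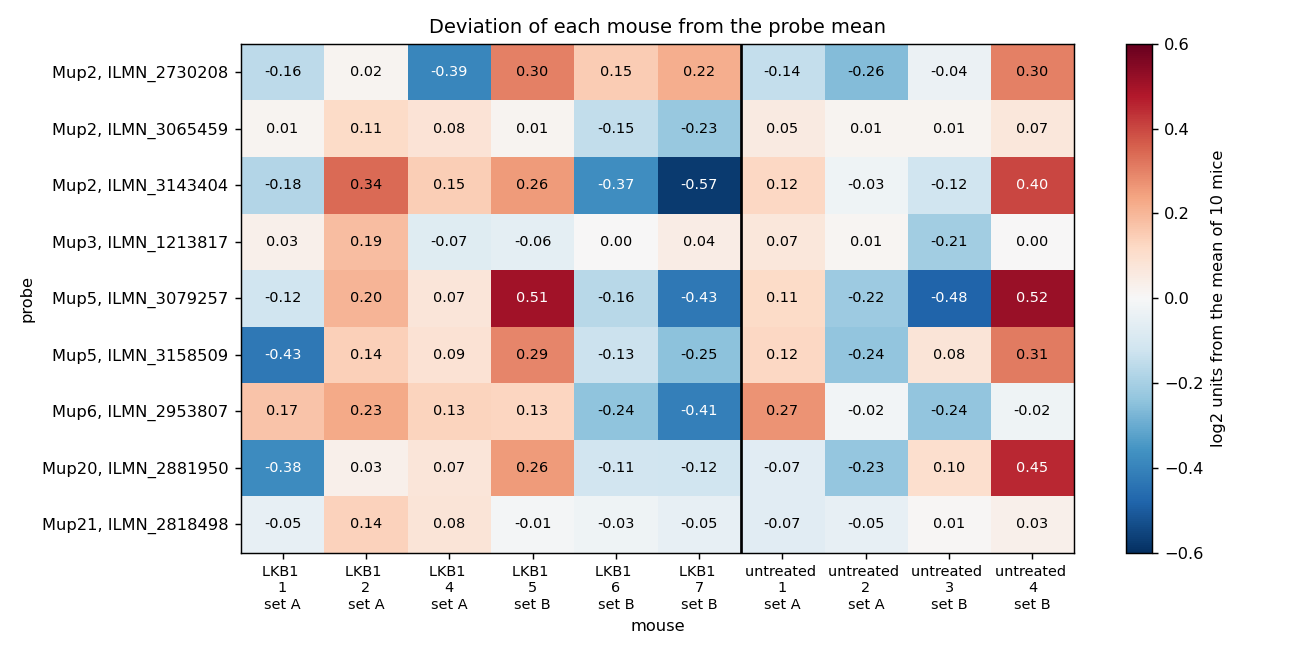
Deviation of each mouse from the mean of 10 mice (colour and printed value, in log2 units) for the 9 Mup probes (rows), with LKB1 mice left of the line and untreated mice right of it, and the array set under each mouse. LKB1 2 is above the mean at 9 of 9 probes and untreated 4 at 8 of 9, LKB1 7 has the lowest single value at -0.57, and the rows of Mup3 and Mup21 are pale.

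Some probes differed in their mean between the array sets, which were defined without the Mup probes. For Mup2 probe ILMN_2730208 the deposited intensity was between 35904 and 40620 on the 5 arrays of set B and between 28050 and 32468 on the 5 arrays of set A, with no overlap. Such a separation with set B higher occurred in 0.232% of kept probes on the deposited scale. After normalization the sets overlapped at all 9 Mup probes. Of all kept probes, 3.06% then had set B wholly above set A and 2.39% wholly below. For ILMN_2730208 the normalized mean of set B was higher by 0.37, at 0.40 among LKB1 mice and 0.33 among untreated mice. Mup6 differed the other way, by -0.31 between set B and set A, at -0.35 among LKB1 mice and -0.26 among untreated mice. The other probes of Mup2 differed between the sets by -0.11 (ILMN_3065459) and -0.16 (ILMN_3143404), so probes named for the same gene did not share a direction.

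Within set A, 8 of 9 Mup probes were higher in LKB1 livers, with log2 fold changes between -0.01 and 0.11. Within set B, 7 of 9 were lower, between -0.37 and 0.10. The sets differed most for Mup2 probe ILMN_3143404, at 0.06 in set A and -0.37 in set B, and for Mup20, at 0.06 and -0.27. A test of the difference between sets gave an adjusted p of 0.999 for every Mup probe (limma interaction term), with a smallest unadjusted p of 0.205. Each set held 3 LKB1 mice and 2 untreated mice, which limits this comparison.

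Genes that share the hormonal control of the family were examined in lists. Of 24 male-biased liver genes 21 were measured, 14 higher and 7 lower in LKB1 livers, with 0 called and a median log2 fold change of 0.03, beside -0.003 over all 9725 genes, of which 0% were called. With array medians made equal, 8 were higher and 13 lower, with a median of -0.03, so the direction of this list depended on the scaling. The steroid and fatty acid enzymes Cyp2d9 and Cyp4a12a, which like many Mup genes follow the male pattern of growth hormone, were at -0.07 ± 0.11 and 0.02 ± 0.08 (SE). The members of smallest p were the fatty acid elongase Elovl3 at 0.39 ± 0.31 (SE), the cytochrome P450 gene Cyp2u1 at -0.14 ± 0.14 (SE) and the glutathione transferase Gstp2 at 0.14 ± 0.15 (SE). None of these passed the test, with limma adjusted p-values of 0.879, 0.915 and 0.916. Gstp2 was near background, with means of 5.22 in LKB1 and 5.07 in untreated livers.

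Of 34 female-biased liver genes 16 were kept, 9 were detected on no array, 4 on too few arrays, and 5 had no probe named for them. Among the 16, 4 were higher and 12 lower in LKB1 livers, with a median of -0.20 and 0 called. With array medians made equal, 5 were higher and 11 lower, with a median of -0.12. Several of the 16 had means near background in both groups, so these medians rest in part on dim probes. Cyp2a5, a coumarin hydroxylase, was at -0.80 ± 0.31 (SE) and lower in set B than in set A by a log2 difference of -0.71, and its relative Cyp2a4 and the nuclear protein gene Tox, both near background, were at -0.17 ± 0.10 and -0.29 ± 0.15 (SE). Their limma adjusted p-values were 0.703, 0.848 and 0.821.

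In the pathway from the growth hormone receptor to STAT5, 11 of 13 measured genes were higher and 2 lower in LKB1 livers, with a median of 0.05 and 0 called. With array medians made equal, 7 were higher and 6 lower, with a median of 0.005, and Ghr, Jak2, Ptpn11 and Leprot changed sign. The receptor Ghr and its kinase Jak2 differed by 0.02 ± 0.10 and 0.01 ± 0.07 (SE), and the probe for Stat5b was detected on no array. At an unadjusted p under 0.05, where 6.30% of all genes lay, there were 3 of the 13. The other gene lists had 0 of 21 male-biased genes, 1 of 16 female-biased genes and 0 of 10 IGF axis genes. They also had 2 of 14 receptors and factors, 1 of 11 lipocalins, 1 of 27 export genes and 1 of 27 plasma protein genes. Socs3, a cytokine-induced inhibitor of JAK signalling, was at -1.18 ± 0.42 (SE). Its LKB1 mice ranged from 5.82 to 6.88, and the untreated mice were at 7.27, 5.92, 8.62 and 8.04, so the groups overlapped through untreated replicate 2. Bcl6, a repressor that is higher in male liver and competes with STAT5, was at -1.07 ± 0.47 (SE), and its LKB1 mice ranged from 8.20 to 11.06 against 10.42 to 10.76 in untreated mice. Between set B and set A, Socs3 differed by 0.77 and Bcl6 by -0.77, and their part in the result was not tested. Leprotl1, which limits receptor display at the cell surface, was at 0.41 ± 0.12 (SE). None passed over all genes, with limma adjusted p-values of 0.679, 0.784 and 0.544.

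The IGF axis, the main endocrine output of growth hormone in liver, had 4 of 10 measured genes higher and 6 lower in LKB1 livers, with a median of -0.01 and 0 called (median -0.05 with array medians made equal, with the same counts). Igf1 differed by 0.05 ± 0.07 (SE). The binding protein genes of smallest p were Igfbp2 at -0.24 ± 0.12 (SE), Igfbp5 at 0.67 ± 0.41 (SE) and Igfbp6 at 0.37 ± 0.25 (SE), with limma adjusted p-values of 0.817, 0.848 and 0.857. Igfbp5 and Igfbp6 were higher in set B than in set A by 0.98 and 0.63. Igfbp6 was near background, with means of 4.99 in LKB1 and 4.62 in untreated livers.

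Nuclear receptors and liver transcription factors were split, with 7 of 14 measured genes higher and 7 lower in LKB1 livers, a median of -0.001 and 0 called (6 higher and 8 lower, median -0.07, with array medians made equal). Ppara, the fatty acid-sensing receptor, was the gene of smallest p among all lists, at -0.46 ± 0.10 (SE), and all 6 LKB1 mice lay between 6.08 and 6.42 against 6.62 to 6.95 in untreated mice. Its limma adjusted p was 0.284, and over all kept probes the groups did not overlap at 1.37%. Pparg was at -0.42 ± 0.18 (SE) and Zhx2, a liver transcription factor, at -0.20 ± 0.11 (SE), with limma adjusted p-values of 0.784 and 0.835. Hnf4a, a central hepatocyte factor, differed by 0.03 ± 0.12 (SE).

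Other lipocalins were measured in 11 of 23 genes, 2 higher and 9 lower in LKB1 livers, with a median of -0.06 and 0 called. With array medians made equal, 5 were higher and 6 lower, with the same median. Lcn12 was at 0.49 ± 0.13 (SE), with LKB1 mice between 6.18 and 6.75 and untreated mice between 5.71 and 6.22. The acute phase lipocalins Orm2 and Lcn2 were at -0.20 ± 0.12 and 0.20 ± 0.23 (SE), and the limma adjusted p-values of Lcn12, Orm2 and Lcn2 were 0.458, 0.848 and 0.924. The retinol carrier Rbp4 differed by -0.02 ± 0.11 (SE).

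The secretory route and the other abundant liver exports also had small differences. Genes of protein export through the endoplasmic reticulum were higher in 12 of 27 and lower in 15 of 27 measured members in LKB1 livers, with a median of -0.01 and 0 called (10 higher and 17 lower, median -0.06, with array medians made equal). Ssr1 of the translocon was at 0.22 ± 0.10 (SE), Srp54a of the signal recognition particle at -0.18 ± 0.10 (SE) and the disulfide isomerase Pdia4 at 0.16 ± 0.10 (SE). Abundant plasma protein genes numbered 27, of which 15 were higher and 12 lower (median 0.01, 0 called), and with array medians made equal 18 were higher and 9 lower (median 0.03). Serpina1c, an antitrypsin gene, was at 0.28 ± 0.12 (SE), Apob at 0.16 ± 0.09 (SE) and haptoglobin, Hp, at 0.13 ± 0.09 (SE), and these 6 genes had limma adjusted p-values between 0.781 and 0.865.

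**Figure D4:**
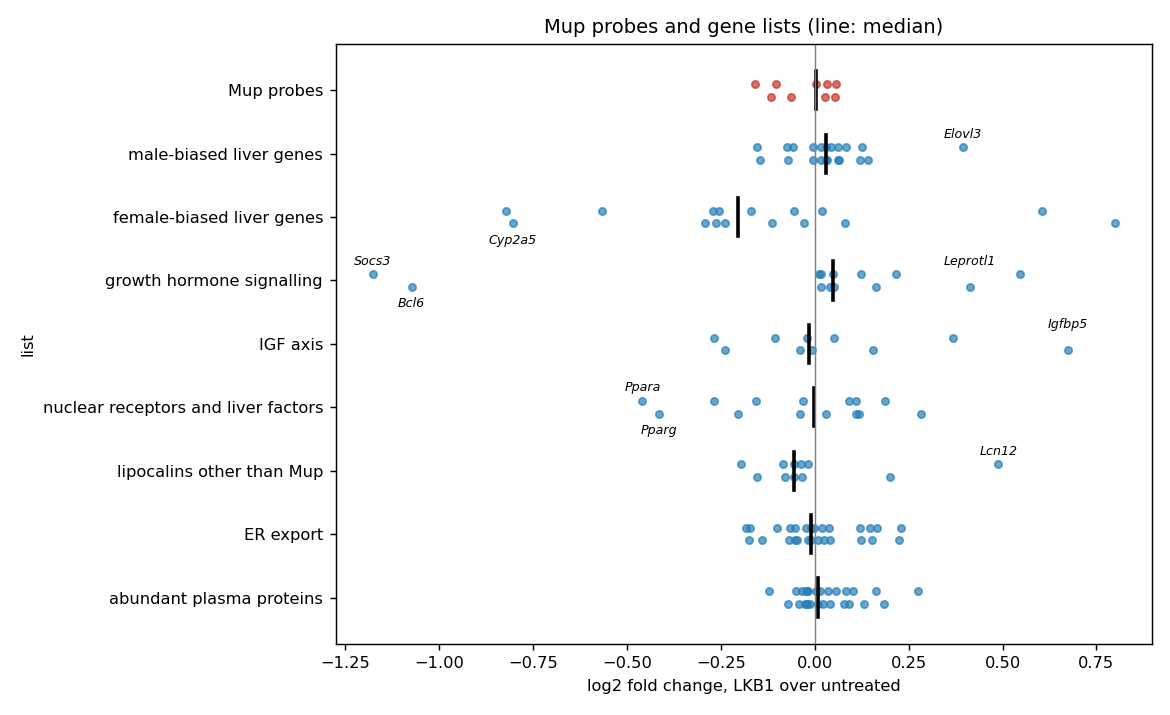
Log2 fold change of LKB1 over untreated livers (horizontal axis) for the 9 Mup probes (red) and for the measured genes of 8 lists (blue), with a black line at each median and the names of some of the genes of smallest p. The Mup probes lie between -0.16 and 0.06, and the list median farthest from 0 is that of the female-biased genes at -0.20. Several genes of that list were near background.

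Markers of other cell types in liver were summarised over their lists. Hepatocyte markers had a median log2 fold change of 0.03 over 6 measured genes (-0.01 with array medians made equal), with Tat near background among them. Endothelial markers had a median of 0.04 over 4, and stellate cell markers of 0.02 over 5. All 5 measured Kupffer cell markers were higher in LKB1 livers (median 0.23, 0 called), where 49% of all kept probes were higher. With array medians made equal all 5 were also higher, with a median of 0.18. Of the 6 Kupffer markers listed, 1 was detected on no array. The mean level of the measured ones was between 7.35 and 7.85 in LKB1 mice and between 6.90 and 7.57 in untreated mice. Lymphocyte markers were higher in 2 of 3 measured genes (median 0.20), bile duct markers in 1 of 2 (median -0.07), neutrophil markers in 1 of 2 (median 0.07) and red cell markers in 0 of 2 (median -0.13), with 0 called in each. The part of these cell types in the Mup values was not tested.

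The genes whose pattern over the 10 arrays was most like the family mean were found among 9719 other genes by Pearson's correlation, used as a measure of likeness only. They were Lrrc45 (0.959), Ing5 (0.928), Slc10a7 (0.911), Ift88 (0.900) and Zc3h6 (0.894). Without untreated replicate 4 and LKB1 replicate 5, the mice farthest from the median of the family mean, the values lay between 0.770 and 0.956. With 10 arrays and this many genes, high values arise in any ranking, and the points share their arrays.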

How the data were processed

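The members, lists and tests were chosen with earlier results of these data known. Per the file headers, the deposited table holds linear intensity (average signal) without normalization. Beside each intensity the authors deposited a detection p-value. The deposited processed values were read as log2 from their fit to the intensities, and every column has the same distribution. Per the submitters' processing notes, lumi was used. The arrays are not said to come from separate litters or cages. Each was taken as 1 mouse, per the series' design text. Unmapped columns numbered 0.

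Intensities were background-corrected with normexp from the detection p-values, given an offset of 16, then quantile-normalized as log2 values by neqc in limma 3.58.1 (R 4.3.3). The 16803 kept probes were compared with lmFit and eBayes, without covariates, at 0.05 after Benjamini-Hochberg adjustment over the kept probes. All tests were two-sided. A listed gene was represented by its brightest kept probe, with p-values adjusted over 9725 genes. Named genes are all Mup probes, Stk11, the 3 members of smallest p in each of 8 gene lists, and 5 genes most like the family mean. Cyp2d9, Cyp4a12a, Ghr, Jak2, Ptpn11, Leprot, Stat5b, Igf1, Hnf4a, Rbp4 and the gland markers were added after their values were seen, and, departing from that rule, 9 cell type marker lists are summarised without naming their members of smallest p. The fit was tested on simulated data. Symbols came from GEO's platform annotation, and 0 needed an update. Alternatives were other normalizations, filters, weights, the replicate number and array set as blocks, and leaving out each mouse. The number of arrays limits the precision.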

Additional observations from a re-analysis of the deposited data

Results flagged for a closer look

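Of 70 groups of values examined for a mouse far from its group, 1 was picked out, where chance picks out about 1 in 20. Orm2, an acute phase lipocalin, was at 7.85 in LKB1 replicate 7, below the other LKB1 mice, of which the nearest was at 8.29. No Mup probe and neither group's family mean held such a mouse.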

How the results depend on the processing

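Over 23 other settings, 0 of 207 Mup values passed the threshold (limma adjusted p from 0.567 to 0.999), 174 kept their direction and 33 did not. Of 400 values of other named genes, 394 kept their direction and 0 passed. Changing the filter, or adding the array set as a block, cannot alter a fold change in this design. Values under those settings kept their direction by construction. The deposited intensity without normalization gave 19 called probes among all kept probes and a difference in the Mup family mean of -0.24, and it turned Mup2 probe ILMN_2730208 (-0.0079), Mup3 (-0.11), Mup5 probe ILMN_3079257 (-0.21), Mup6 (-0.27) and Mup21 (-0.10). Its median over all kept probes was also lower, at -0.20. Equal medians turned Mup5 probe ILMN_3079257 (-0.0050), Mup6 (-0.060) and Stk11 (-6.5e-05). Array weights turned the same Mup5 probe (-0.029) and Mup6 (-0.019), and cyclic loess turned Mup2 probe ILMN_3065459 (0.052). Within set A, Mup2 probes ILMN_3065459 (0.036) and ILMN_3143404 (0.056), Mup20 (0.060), Cyp2u1 (0.11) and Igfbp6 (-0.028) turned. Within set B, Mup5 probe ILMN_3079257 (-0.047), Mup6 (-0.045), Mup21 (-0.047) and Lcn2 (-0.054) turned. The cause was not tested.

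Leaving out each mouse gave 0 to 1 called probes among all kept probes, the 1 without LKB1 replicate 2, and a difference in the family mean from -0.07 to 0.04. It gave -0.018 to 0.17 for Mup2 probe ILMN_2730208, -0.0066 to 0.087 for Mup3, -0.13 to 0.21 for Mup5 probe ILMN_3079257, -0.074 to 0.095 for Mup6 and -0.20 to 0.026 for Mup20.

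The replicate numbers 1, 2 and 4 occur in both groups, and deviations of same-numbered mice correlated at 0.146, 0.239 and -0.166. The LKB1 mice most correlated with these untreated mice were LKB1 1, LKB1 1 and LKB1 5, at 0.146, 0.240 and 0.144. Whether the numbers mark pairs cannot be told from these values. The replicate block called 0 probes (1043 at an unadjusted p under 0.05) and turned Mup2 probes ILMN_2730208 (-0.14) and ILMN_3065459 (0.025), Mup5 probe ILMN_3079257 (-0.086), Cyp2u1 (0.052) and Igfbp6 (-0.18).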
